A study of Homo sapiens with 6 samples.

Results

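The 10 genes EZH2, DNMT1, UHRF1, HELLS, SUV39H1, SUV39H2, LMNB1, HMGB2, ASF1B and CBX5 encode chromatin and DNA methylation factors that cycling cells use when they copy their chromatin. They were listed by name, with earlier results of these data known. Every probe set that the array annotation gives to one of them was read. That makes 21 of the 54613 probe sets tested and 10 of 19775 genes. RNA came from NCI-H226, an established human mesothelioma cell line, grown either as spheroids or as adherent monolayers. For a spheroid, 10000 dissociated cells were spun together in a well coated with poly-HEMA, which keeps cells from attaching, and incubated for 24 hours. Monolayers were adherent cultures in RPMI medium with fetal bovine serum, the labels name no treatment for them, and the time at which they were harvested for the arrays is not given in the sources used here. There were 3 spheroid and 3 monolayer samples, called biological replicates by the labels, with 1 Affymetrix Human Genome U133 Plus array each. All come from 1 cell line, so the p-values measure the spread between cultures of that line. The dissociation, the coated well, the cell contact and the culture time differ together between the groups and cannot be told apart.

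DNA methylation is copied after each round of replication by DNMT1, which is guided to half-methylated sites by UHRF1, while the remodelling ATPase HELLS opens packed chromatin to it. Polycomb repressive complex 2, whose catalytic subunit is EZH2, methylates lysine 27 of histone H3. SUV39H1 and SUV39H2 methylate lysine 9, and HP1 alpha, the product of CBX5, binds that mark in heterochromatin. ASF1B hands new histones H3 and H4 to the fork, HMGB2 bends DNA, and lamin B1, the product of LMNB1, lines the nuclear envelope. Several of these genes are known targets of E2F factors and are high in dividing cells.

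The 10 genes were lower in spheroids almost without exception. Values are MAS5 signals on a linear scale, as deposited, and a fold change is the difference of mean log2 signals after centring each array on its median, spheroids minus monolayers. A probe set is called lower or higher when its Benjamini-Hochberg adjusted p by limma is under 0.05, adjusted over all probe sets. A gene is represented by the brightest of its probe sets, that with the highest mean log2 signal. By this reading 9 of the 10 genes were downregulated, 0 were upregulated and LMNB1 did not pass, where 9.22% of all genes were called lower and 3.88% higher. Over all their probe sets, 16 of 21 were called lower and 0 higher, where 9.43% of the probe sets tested were called, 6.65% lower and 2.78% higher. The 10 genes and the other lists were chosen with earlier results of these data known, so such shares describe them and do not test them. In bulk RNA, fewer cells that express these genes and less of their RNA per cell cannot be told apart. Before adjustment, all 10 genes were lower at a limma p under 0.05, where 17.9% of all genes were lower and 9.62% higher. The median log2 fold change of the 10 genes was -1.18, beside -0.06 over all genes. On the deposited signals the 3 spheroids lay below all 3 monolayers for 9 of the 10 genes, where 16.0% of all genes did so, and for 16 of the 21 probe sets, where 13.5% of all probe sets did so.

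The call depended on how the variance was modelled. Without the mean-variance trend limma passed 1 of the 10 genes, ASF1B, where 0.718% of all genes were called lower. By the methods' t-test after Benjamini-Hochberg DNMT1, SUV39H1, SUV39H2, ASF1B and CBX5 passed, where 2.65% of all genes were called lower. The fold changes are the same in each test, and adjusted p-values of the other 8 called genes without the trend ran from 0.0526 to 0.168.

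**Figure D1:**
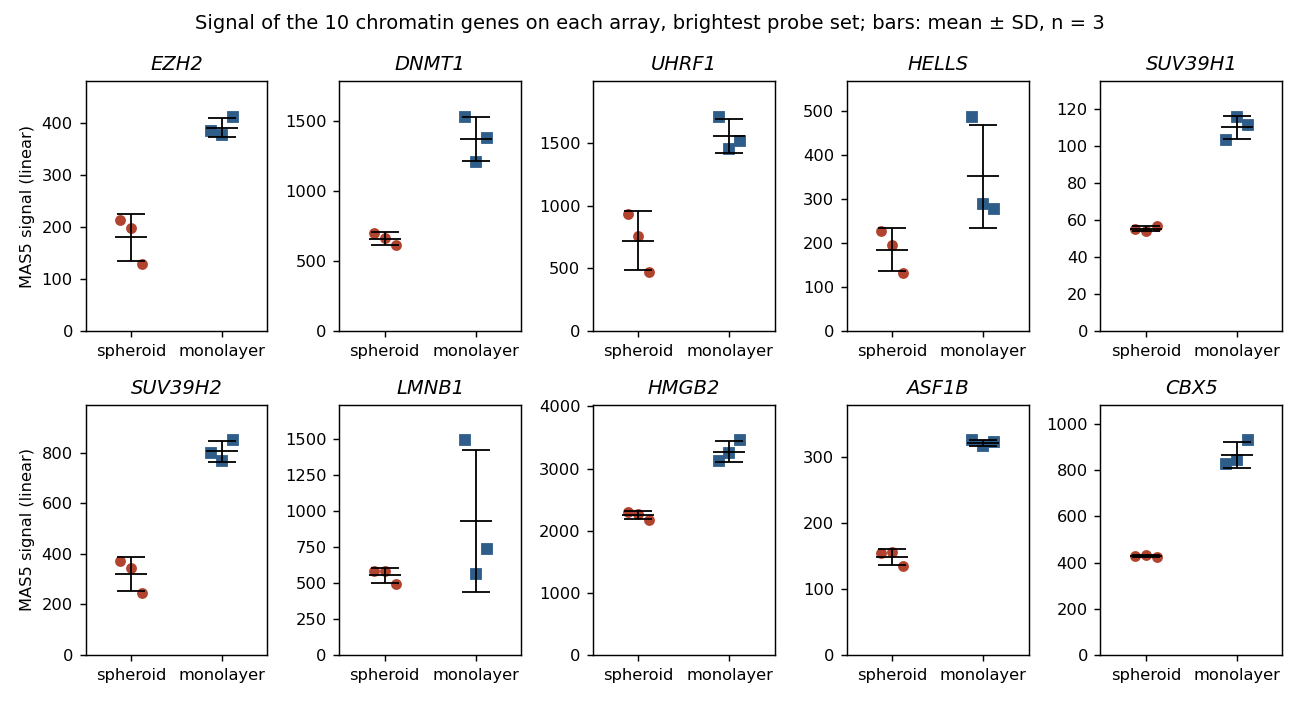
MAS5 signal (linear scale, from 0) of the 10 genes on each array, 3 spheroid arrays (circles, left) and 3 monolayer arrays (squares, right), each gene by its brightest probe set, with bars for mean ± SD, n = 3. In every panel but that of LMNB1 the spheroid points lie below all monolayer points, and for LMNB1 1 monolayer lies at 1488 and another below 2 of the spheroids.

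Among the factors that copy DNA methylation, all 3 genes were downregulated by 2.09 to 2.48-fold. DNMT1, the maintenance methyltransferase, had signals of 705, 667 and 615 in spheroids, against 1534, 1213 and 1378 in monolayers. The groups were far apart relative to the spread within them (log2 fold change -1.20, 95% interval -1.51 to -0.88, limma adjusted p = 0.00151). UHRF1, which reads half-methylated DNA, had 938, 759.6 and 471 in spheroids, against 1709, 1451 and 1515 in monolayers. Spheroid 3 was the lowest array and spheroid 1 the highest of the spheroids, and the groups did not overlap (log2 fold change -1.31, 95% interval -1.81 to -0.81, limma adjusted p = 0.00721). Both genes have 1 probe set, and both kept their call without any one array.

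HELLS, the remodelling ATPase, is read by 5 probe sets, and all 5 were lower. Its brightest one, 227350_at, had 227, 195 and 131 in spheroids, against 487, 289.7 and 278 in monolayers, and differed by -1.06 on the log2 scale (SE 0.26, limma adjusted p = 0.0336). The first monolayer was the high one there, and this probe set lost its call without monolayer 2, monolayer 3, spheroid 2 or spheroid 3 (limma adjusted p = 0.069, 0.0516, 0.119 and 0.124). The next brightest, 223556_at, was tighter, with 118, 137 and 122 in spheroids, against 329, 276 and 321 in monolayers (log2 fold change -1.44, SE 0.14, limma adjusted p = 7.90e-04). The other 3 had log2 fold changes of -1.34 (220085_at), -1.18 (227349_at) and -1.86 (234040_at), the last at mean signals of 12.5 ± 1.60 in spheroids and 40.9 ± 4.41 in monolayers (SD, n = 3 each). Of these, 227349_at lost its call without monolayer 1, monolayer 2, spheroid 2 or spheroid 3 (limma adjusted p = 0.0568, 0.0957, 0.12 and 0.109), while 223556_at, 220085_at and 234040_at kept theirs without any one array.

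Of 14 other measured genes of DNA methylation and its removal, 3 were lower, 0 were higher and 11 did not pass, with a median log2 fold change of -0.38. CDCA7, the partner that HELLS needs to remodel nucleosomes, had 413, 296 and 232 in spheroids, against 739, 892 and 794 in monolayers (log2 fold change -1.55, limma adjusted p = 0.00266). Its relative CDCA7L and TDG, a glycosylase that excises oxidised methylcytosine, had log2 fold changes of -1.01 and -0.97 (SE 0.20 and 0.24). The smallest adjusted p among those that missed was that of TET3, an oxidase of methylcytosine, at 0.0707 by limma (log2 fold change -0.53). At an unadjusted limma p under 0.05, 8 of this list were lower and 0 higher, beside 17.9% and 9.62% of all genes. The adjusted count of 3 was 1 without monolayer 2, monolayer 3, spheroid 2 or spheroid 3, and 0 without the trend or by the methods' t-test.

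EZH2, the methyltransferase of Polycomb repressive complex 2, was lower in spheroids as well. Its probe set 203358_s_at had signals of 214, 197 and 129.7 in spheroids, against 385, 376 and 412 in monolayers. The third spheroid was the lowest array and the monolayers lay within a narrow band (log2 fold change -1.29, 95% interval -1.70 to -0.89, limma adjusted p = 0.00314), and the call held without any one array. The suffix _s_at marks a probe set whose probes match several transcripts.

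Of 14 other measured Polycomb genes, 3 were lower, 0 were higher and 11 did not pass, with a median log2 fold change of -0.26. PHF19, an accessory subunit that brings the complex to chromatin, changed more than EZH2, with 268, 316 and 247 in spheroids, against 808, 830.4 and 971 in monolayers (log2 fold change -1.80, SE 0.13, limma adjusted p = 3.19e-04). EED, a core subunit that binds the mark, and CBX2, a reader in the other Polycomb complex, had log2 fold changes of -0.70 and -1.16 (limma adjusted p = 0.00771 and 0.0337). SUZ12, the third core subunit, had a log2 fold change of -0.42 and did not pass (95% interval -0.73 to -0.11, limma adjusted p = 0.1004). Unadjusted, 7 genes of the list were lower and 2 higher at a limma p under 0.05, beside the same 17.9% and 9.62% of all genes. Without the trend 1 gene of the list was called lower.

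E2F factors bind sites that were searched here as TTTGGCGC, TTTGCCGC, TTTCGCGC or TTTCCCGC on both strands, in RefSeq promoter windows of build GRCh38.p14 that run from 250 bases before to 50 after an annotated start. The table holds 16 such windows for 9 of the 10 genes, all but HMGB2, and windows of 1 gene can overlap. A match lay in 5 of the 16 windows, those of EZH2, DNMT1, UHRF1 (in 2) and HELLS, where 3.31% of all 35116 windows hold one. The 4 windows shown here were chosen because their match lies close to the start. Each runs from 60 bases before to 20 after the start, 5′ to 3′ on the strand of the gene, with the matched letters in capitals:
EZH2, chr7:148884272-148884351, minus strand: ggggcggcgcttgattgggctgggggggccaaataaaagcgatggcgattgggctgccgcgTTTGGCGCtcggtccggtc
DNMT1, chr19:10194934-10195013, minus strand: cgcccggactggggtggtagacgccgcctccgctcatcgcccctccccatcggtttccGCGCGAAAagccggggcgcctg
UHRF1, chr19:4909441-4909520, plus strand: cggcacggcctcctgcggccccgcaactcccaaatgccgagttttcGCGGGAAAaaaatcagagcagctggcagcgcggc
HELLS, chr10:94545728-94545807, plus strand: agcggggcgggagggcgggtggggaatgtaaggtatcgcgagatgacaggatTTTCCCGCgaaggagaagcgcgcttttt
Within this shorter window 4 of the 16 member windows and 0.894% of all windows hold a match. The CHR element TTTGAA, also on both strands, lay in 2 of the 16 windows, those of SUV39H2 and ASF1B, and in 15.2% of all, and CCAAT on either strand lay in 10 of the 16 and in 34.6% of all. In the member windows no match to one motif overlapped a match to another. A match is a run of letters, and whether a factor binds there was not measured.

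Both SUV39 enzymes, which methylate lysine 9 of histone H3, were lower in spheroids. SUV39H2 had the most negative fold change of the 10 genes, with signals of 371, 344 and 243 in spheroids, against 800.3, 767 and 848 in monolayers at probe set 1554572_a_at (log2 fold change -1.50, 95% interval -1.86 to -1.14, limma adjusted p = 0.0011). Its second probe set, 219262_at, gave -1.35 (SE 0.19), and neither lost its call without any one array. The related SUV39H1 had 55.2, 54.1 and 57.0 in spheroids, against 104, 116 and 111 in monolayers, with almost no spread among the spheroids (log2 fold change -1.14, 95% interval -1.53 to -0.74, limma adjusted p = 0.0048).

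CBX5, which encodes HP1 alpha, gave a divided result over its 6 probe sets. The brightest, 209715_at, had 429.7, 433 and 422 in spheroids, against 827, 842 and 928 in monolayers, a 2.23-fold difference with a spread among spheroids of 5.50 (SD) around a mean of 428 (log2 fold change -1.16, limma adjusted p = 0.00115). The dimmest called one, 242069_at, had 16.8, 8.68 and 12.6 in spheroids, against 56.0, 33.4 and 57.1 in monolayers (log2 fold change -2.10, limma adjusted p = 0.0105), and 231862_at had one of -1.01 (limma adjusted p = 0.0223). The remaining 3 did not pass. Probe set 226085_at had 346, 254 and 262 in spheroids, against 356, 272 and 244 in monolayers, so that the groups overlapped fully (log2 fold change -0.16, 95% interval -0.62 to 0.30), and 212126_at and 234990_at had log2 fold changes of -0.46 and -0.62 (limma adjusted p = 0.188 and 0.255). Read by the median over its 6 probe sets CBX5 had a log2 fold change of -0.59 and did not pass (limma adjusted p = 0.106). The transcript regions that these probe sets cover are not given in the sources used here. The call of 231862_at ended without monolayer 2, spheroid 2 or spheroid 3 (limma adjusted p = 0.0644, 0.0785 and 0.0721) and that of 242069_at without monolayer 3 (limma adjusted p = 0.0531).

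Of 14 other genes of lysine 9 methylation and HP1, 3 were lower, 1 was higher and 10 did not pass, with a median log2 fold change of -0.13. The lysine 9 methyltransferase EHMT2 had 72.1, 69.8 and 72.4 in spheroids, against 109, 136 and 128 in monolayers (log2 fold change -0.94), and TRIM28, a corepressor that recruits SETDB1, and SETDB2 had log2 fold changes of -0.92 and -0.88 (limma adjusted p = 0.0111, 0.00302 and 0.0337). Other lysine 9 methyltransferases did not pass, with log2 fold changes of -0.20 for EHMT1 and 0.38 for SETDB1 (limma adjusted p = 0.479 and 0.188). The one called higher was KDM3A, which removes methyl groups from lysine 9. It had 929, 681 and 622 in spheroids, against 268, 251 and 262 in monolayers (log2 fold change 1.35, SE 0.18, limma adjusted p = 0.0025). Before adjustment, 5 genes of the list were lower and 5 higher at a limma p under 0.05, beside 17.9% and 9.62% of all genes. With the values as deposited 4 genes of this list were called higher, 5 after quantile normalization, 2 without monolayer 1 and 0 without the trend or by the methods' t-test. The lower count was 1 without monolayer 2 or monolayer 3 and 0 without the trend.

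**Figure D2:**
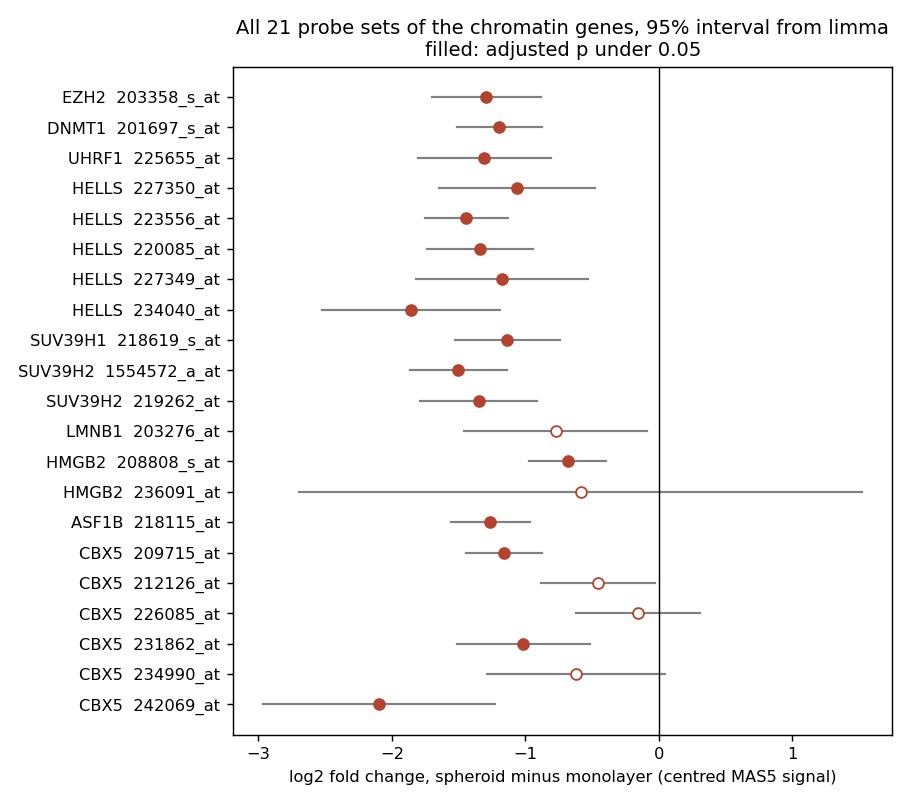
Log2 fold change (spheroids minus monolayers, centred MAS5 signal) of all 21 probe sets of the 10 genes, with the 95% interval from limma over 3 arrays per group; filled points have an adjusted p under 0.05. All 21 points lie below 0, 16 are filled, and the 6 probe sets of CBX5 run from -2.10 to -0.16.

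ASF1B, a chaperone of histones H3 and H4, was the only one of the 10 genes whose brightest probe set was called under every alternative tried. Its signals were 155, 156 and 135 in spheroids, against 326, 317 and 323 in monolayers (log2 fold change -1.26, SE 0.13, limma adjusted p = 9.99e-04). Spheroids and monolayers each lay within a narrow band. The other histone chaperones were the pathway list with the largest share of lower genes apart from the proliferation markers: of 14 measured, 8 were lower, 0 were higher and 6 did not pass, with a median log2 fold change of -0.64. HJURP, which deposits the centromeric histone, had 238, 209 and 152 in spheroids, against 666, 525 and 542 in monolayers (log2 fold change -1.69). CHAF1A and CHAF1B, subunits of the assembly factor that works at the replication fork, had log2 fold changes of -1.25 and -1.65, and NASP, a store of H3 and H4, -1.12 (limma adjusted p = 0.00128, 0.00141 and 0.00318). SSRP1 had a log2 fold change of -0.98 (limma adjusted p = 0.00271). HIRA, which deposits histone H3.3 outside replication, had a log2 fold change of -0.21 (95% interval -0.54 to 0.13), and DAXX, another chaperone of that variant, 0.70 (95% interval 0.24 to 1.17, limma adjusted p = 0.0676). Without the trend 0 of these chaperones passed, at an unadjusted limma p under 0.05 with it 10 were lower and 1 was higher, beside 17.9% and 9.62% of all genes, and 3 passed the methods' t-test after Benjamini-Hochberg.

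HMGB2, an abundant DNA-bending protein, was lower in spheroids. Probe set 208808_s_at had 2306, 2271 and 2177 in spheroids, against 3118, 3244 and 3452 in monolayers, and these groups did not overlap (log2 fold change -0.68, 95% interval -0.97 to -0.40, limma adjusted p = 0.0113). The call ended without monolayer 2 or monolayer 3 (limma adjusted p = 0.0674 and 0.0706). Its other probe set, 236091_at, read 1.82, 10.8 and 10.9 in spheroids, against 2.34, 18.1 and 12.6 in monolayers, signals near or below the array medians, and gave no usable comparison (95% interval -2.70 to 1.52). Of the 9 other HMG genes 2 were lower, 0 were higher and 7 did not pass: HMGB3 had a log2 fold change of -1.41 and HMGB1 of -0.59 (limma adjusted p = 8.28e-04 and 0.0364). Unadjusted, 3 were lower and 0 higher at a limma p under 0.05, beside 17.9% and 9.62% of all genes. The adjusted count of 2 was 1 without monolayer 1, monolayer 2, monolayer 3, spheroid 2 or spheroid 3. That count was also 1 without the trend, by the methods' t-test or with a floor at the 20th percentile of all signals. After quantile normalization it was 3.

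LMNB1, which encodes lamin B1, was the member that did not pass. Its signals were 584, 579 and 494 in spheroids, against 1488, 562 and 735 in monolayers (log2 fold change -0.77, 95% interval -1.46 to -0.09, limma adjusted p = 0.167). Monolayer 1 held more than the other two monolayers, and monolayer 2 lay below 2 of the spheroids in deposited signal, while on the centred values used for the test the 3 spheroids lay below all 3 monolayers. With a replicate block LMNB1 passed (limma adjusted p = 0.0412), although the labels do not say that a number marks a shared culture. Without monolayer 1 the log2 fold change was -0.37 and without monolayer 2 it was -1.07 (limma adjusted p = 0.188 and 0.0771). Of 11 other genes of the lamina and nuclear envelope, 4 were lower, 0 were higher and 7 did not pass, with a median log2 fold change of -0.40. LMNB2, the second B-type lamin, had 468, 419.9 and 342 in spheroids, against 1206, 1002 and 1049 in monolayers (log2 fold change -1.56, SE 0.15, limma adjusted p = 8.28e-04). TMPO, a lamin-binding protein of the inner membrane, BANF1, which tethers DNA to the envelope, and LBR, the lamin B receptor, had log2 fold changes of -1.31, -1.06 and -0.84 (limma adjusted p = 9.30e-04, 0.00259 and 0.0165). The same list had 6 genes lower and 0 higher at an unadjusted limma p under 0.05, beside 17.9% and 9.62% of all genes, and 1 called lower without the trend.

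**Figure D3:**
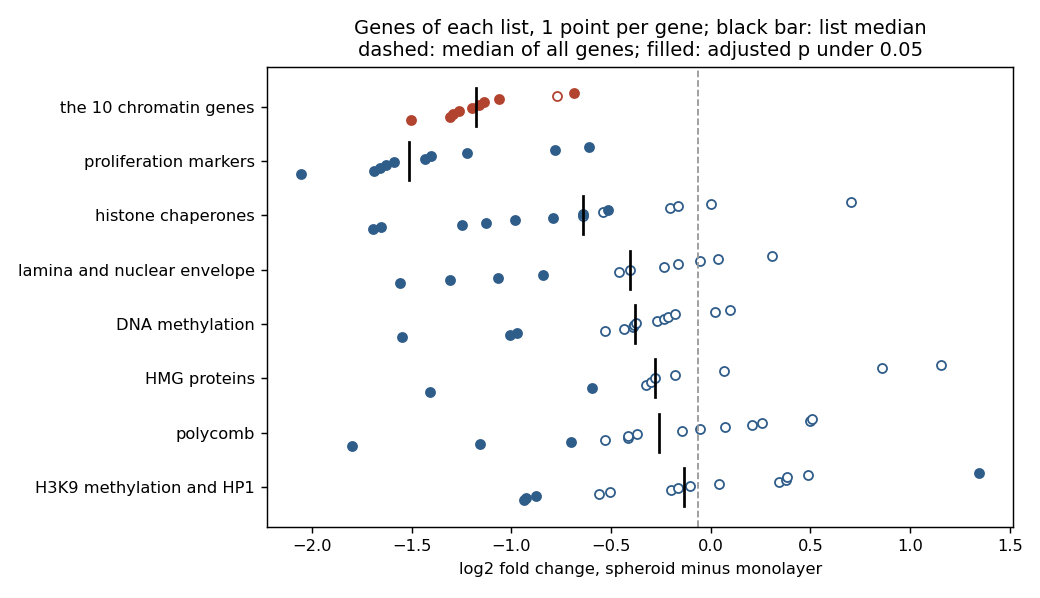
Log2 fold change (spheroids minus monolayers) of each gene in 8 lists, 1 point per gene by its brightest probe set, filled where the adjusted p by limma is under 0.05, with a black bar at each list's median and a dashed line at the median of all genes, -0.06. The 10 genes lie between -1.50 and -0.68 with a median of -1.18, the proliferation markers have a median of -1.51, and the other chromatin lists have medians between -0.64 and -0.13.

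Most of the 10 genes have a relative with a similar product, and 12 such pairs were compared by the log2 ratio of member to paralog within each array. Two-sided exact permutation tests over 3 arrays against 3 cannot go below p = 0.1, or 0.133 after Benjamini-Hochberg over the 12 pairs, so no pair could pass. The ratio was lower in spheroids without overlap in 7 pairs, higher without overlap in 2 and overlapping in 3. DNMT1 and CBX5 each enter 2 of the 7, so these are not separate results. The share of other gene pairs without overlap was not computed.

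EZH2 was set against EZH1, the alternative catalytic subunit of the same complex. EZH1 had 143, 161 and 144 in spheroids, against 87.7, 128 and 128 in monolayers (log2 fold change 0.26, 95% interval -0.16 to 0.67, limma adjusted p = 0.477). The log2 ratio of EZH2 to EZH1 was 0.24 ± 0.37 in spheroids and 1.79 ± 0.30 in monolayers (SD, n = 3 each), a difference of -1.55 (exact permutation p = 0.1, adjusted 0.133). UHRF2, the relative of UHRF1, had 324, 459.7 and 355 in spheroids, against 264, 307 and 396 in monolayers (95% interval of its log2 fold change -0.29 to 0.48), and the ratio of UHRF1 to it differed by -1.40. For DNMT1 against DNMT3A and DNMT3B, the methyltransferases that set new methylation, the differences were -0.96 and -0.92, with 95% intervals for the paralogs' own log2 fold changes of -0.67 to 0.20 and -0.84 to 0.30. CBX5 differed by -1.06 from CBX3 and by -0.60 from CBX1, which encode HP1 gamma and HP1 beta, and ASF1B by -0.62 from ASF1A (95% intervals of the paralogs' log2 fold changes -0.45 to 0.25, -0.91 to -0.21 and -1.06 to -0.22). CBX1 and ASF1A did not pass (limma adjusted p = 0.0537 and 0.0665).

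The other way round, LMNB2 was lower relative to LMNB1 (difference 0.78 for LMNB1 over LMNB2) and HMGB3 relative to HMGB2 (difference 0.72 for HMGB2 over HMGB3), both without overlap. The ratio of SUV39H1 to SUV39H2 differed by 0.37 (exact permutation p = 0.2, adjusted 0.24), that of HMGB2 to HMGB1 by -0.09 (exact permutation p = 0.5, adjusted 0.545) and that of LMNB1 to LMNA by -0.32 (exact permutation p = 0.8, adjusted 0.8), and in these 3 pairs the groups overlapped. Read by the median over the probe sets of each gene, 4 pairs were lower without overlap, and the differences for CBX5 were 0.13 against CBX3 and -0.02 against CBX1. By that reading DNMT1 differed by -0.51 from DNMT3A (exact permutation p = 0.2, adjusted 0.4) and HMGB2 by 0.49 from HMGB3 (exact permutation p = 0.5, adjusted 0.667), and both pairs overlapped.

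**Figure D4:**
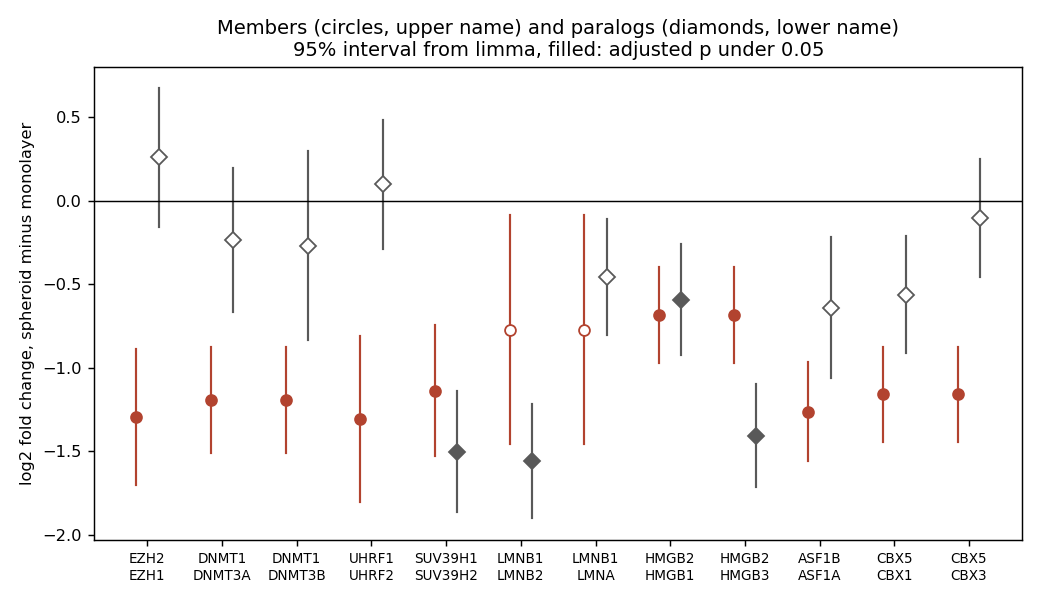
Log2 fold change (spheroids minus monolayers) with its 95% interval from limma for each member (circles) and its paralog (diamonds), n = 3 arrays per group, filled where the adjusted p is under 0.05. EZH1, DNMT3A, DNMT3B, UHRF2 and CBX3 have intervals that include 0 beside a called member, while LMNB2 at -1.56 and HMGB3 at -1.41 lie below LMNB1 and HMGB2.

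Markers of dividing cells moved with the 10 genes. All 10 proliferation markers listed were called lower in spheroids, beside 9.22% of all genes, with a median log2 fold change of -1.51. Without the trend 2 of them passed, beside 0.718% of all genes called lower. By the methods' t-test after Benjamini-Hochberg 3 passed, beside 2.65% of all genes called lower. MKI67, the Ki-67 antigen, had 145, 123 and 89.4 in spheroids, against 379.9, 235 and 242 in monolayers (log2 fold change -1.40, limma adjusted p = 0.00721). TOP2A, the topoisomerase of mitosis, had 1192, 972 and 715 in spheroids, against 2244, 1834 and 1896 in monolayers, and PCNA, the sliding clamp of replication, 1493, 1385 and 1453 in spheroids, against 1936, 1995 and 2034 in monolayers (log2 fold changes -1.22 and -0.61). The part of the proliferation markers in the result was not tested.

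On centred values spheroid 1 was the lowest spheroid for 0 of the 10 genes, spheroid 2 for 6 and spheroid 3 for 4, beside 0, 2 and 8 of the 10 proliferation markers and 5210, 10004 and 4561 of all 19775 genes. Monolayer 1 was the highest monolayer for 5 of the 10 genes and for 8 of the 10 markers, beside 36.3% of all genes.

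Outside the lists, the genes whose centred values followed the mean profile of the 10 genes most closely over the 6 arrays were KLHL18, an adaptor of a ubiquitin ligase, NUP107, a nuclear pore scaffold protein, PPAT, the first enzyme of purine synthesis, FAM83D, a mitotic spindle protein, and BCL2L12 (Pearson r = 0.999, 0.999, 0.999, 0.999 and 0.998). NUP107 had 946, 923 and 799.9 in spheroids, against 1775, 1499.9 and 1626 in monolayers, and FAM83D 507, 469.7 and 355 in spheroids, against 1428, 1134 and 1232 in monolayers. The arrays fall into 2 groups, and 932 of 12264 candidate genes had r above 0.95 with that profile, so the correlations are given as a description with no p.

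The authors scaled each to the same trimmed mean, but the median signal was 15.6, 18.05 and 15.2 on the spheroid arrays and 14.7, 14.6 and 14.7 on the monolayer arrays. Without centring every log2 fold change is therefore higher by 0.15, and 8 of the 10 genes were then called lower, all but LMNB1 and HELLS at 227350_at (limma adjusted p = 0.0688). Over all probe sets the calls were 3630 lower and 1519 higher with centring and 2863 lower and 2561 higher without it. The 3′ probe set of ACTB over its 5′ probe set, which rises as RNA degrades, gave 1.114, 1.177 and 1.234 in spheroids and 1.088, 1.086 and 1.109 in monolayers, so that all spheroids lay above all monolayers (two-sided exact permutation p = 0.1, adjusted 0.2 over 2 ratios). The same ratio for GAPDH gave 0.900, 0.914 and 0.890 in spheroids and 0.914, 0.882 and 0.887 in monolayers, and the groups overlapped (two-sided exact permutation p = 0.6, adjusted 0.6). The part of RNA quality in the result was not tested.

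Of 7 mesothelial markers measured, PDPN was called higher (log2 fold change 1.10, limma adjusted p = 0.0396) and 0 were called lower. At an unadjusted limma p under 0.05, 2 were higher and 1, THBD, was lower (log2 fold change -1.24, limma adjusted p = 0.109). Monolayer 1 stood apart here. On deposited signals replicate 1 was the highest array of its group for all 7 markers, in spheroids and in monolayers. CALB2 had 2238, 1317 and 1765 in spheroids, against 1582, 163 and 83.6 in monolayers. KRT5 had 910.5, 267 and 290.4 in spheroids, against 1845, 129.9 and 79.3 in monolayers. The summed signal of the list ran from 6447 to 9116 in spheroids and from 2669 to 8617 in monolayers. Without monolayer 1, 5 mesothelial markers were called higher, and 0 were without monolayer 2, monolayer 3 or any one spheroid, without the trend, with the floor on low signals, by the median over probe sets or by the methods' t-test. With a replicate block 2 mesothelial markers were called higher and 1 lower. The part of this list in the result was not tested.

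Of 6 leukocyte, 8 endothelial and 8 fibroblast markers 0, 0 and 1 were called, the last being PDGFRA, which was higher and did not pass without the trend, by the methods' t-test or by the median over probe sets. At a limma p under 0.05 before adjustment, 2, 1 and 1 of these markers were higher and 0 lower, beside 9.62% and 17.9% of all genes. Without monolayer 1, 1 leukocyte and 2 fibroblast markers were called higher and 1 fibroblast marker lower, and 1 endothelial marker was called higher without spheroid 2. Their summed signals ran from 149 to 189 in spheroids and from 112 to 130.4 in monolayers for leukocytes, from 184 to 242 in spheroids and from 250.5 to 486 in monolayers for endothelium, and from 1980 to 2260 in spheroids and from 1832 to 2391 in monolayers for fibroblasts. PTPRC, which marks all leukocytes, was at 13.1 ± 0.877 in spheroids and 3.92 ± 2.60 in monolayers (SD, n = 3 each), below or near the array medians.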

How the data were processed

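RNA of 3 spheroid and 3 monolayer cultures of NCI-H226 was hybridized to Affymetrix Human Genome U133 Plus arrays. The deposited values are linear signal intensities per probe set that the authors computed with MAS5 and scaled to a common trimmed mean. Detection calls were not used, so how far a signal stands above background was not assessed, and 3 arrays a group set the precision. The tests left out 62 controls among 54675 probe sets. Signals were transformed to log2 and centred on each array's median, with no floor or filter, and compared with limma 3.58.1 under R 4.3.3 (empirical Bayes with a mean-variance trend, Benjamini-Hochberg over 54613 probe sets, threshold 0.05).

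The array annotation gives 1 symbol to 41097 probe sets, several to 1801 and none to 11777, and only probe sets with 1 symbol were named. The members and lists were chosen with earlier results of these data known. Named are all members, all paralogs, MKI67, PCNA and TOP2A, up to 4 genes per list with the smallest adjusted p and the 5 genes most like the members. NASP was named outside this rule. SUZ12, EHMT1, SETDB1, HIRA, DAXX, TET3, HMGN3, HMGA2 and the cell type markers were chosen after their values were seen. Some listed genes are not reported here. Promoter sequences are from RefSeq (GRCh38.p14).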

Additional observations from a re-analysis of the deposited data

How the results depend on the processing

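The counts depended most on the variance model. Limma without the trend called 457 probe sets (281 lower), 3 of the 21 probe sets and 1 of the 10 genes lower, while the methods' t-test after Benjamini-Hochberg called 1241 (974 lower), 7 and 5. Without 1 array the called probe sets ranged from 2438 to 6577 (1612 to 4314 lower), the member probe sets from 12 to 16 and the member genes from 7 to 9. The paralog ratios lower without overlap stayed at 7. Groups that do not overlap cannot overlap once an array is left out, so that count could not fall. The lowest counts over all probe sets came without monolayer 2 (2438, 1612 lower) and without monolayer 3 (2473, 1660 lower), followed by spheroid 3 (2817) and spheroid 2 (3047). Read by the median over the probe sets of a gene, 7 of the 10 genes were lower, with HMGB2 and CBX5 lost, and 4 paralog ratios. Same-numbered spheroid and monolayer arrays deviated from their group means with correlations of 0.09, -0.01 and 0.02, and differently numbered ones with -0.08 to 0.05. These run over all probe sets, dim ones included, so they cannot settle whether a number marks a shared culture. On deposited signals all 7 mesothelial markers were highest in replicate 1 of each group. So was HMGN3, with 3320, 1757 and 2095 in spheroids, against 3390, 1548 and 1493 in monolayers. HMGA2 was lowest there, with 88.4, 1238 and 850 in spheroids, against 8.85, 882 and 1469 in monolayers. How many of all genes set replicate 1 apart in both groups was not counted. The authors describe 3 independent experiments, without stating which cultures were grown together. The main fit took no pairs. A replicate block gave 17 of the 21 probe sets and 10 of the 10 genes lower, LMNB1 included (limma adjusted p = 0.0412), of 6133 probe sets called. Quantile normalization gave 8 of the 10 genes lower, a floor at the 20th percentile of all signals (3.11) 8, and probe sets above the median level alone 9. Values turned positive for CBX5 226085_at after quantile normalization (0.0157), for HMGB2 236091_at without spheroid 1 (0.24, with a range of -1.48 to 0.24 over the arrays left out) and for CBX5 against CBX3 by the median over probe sets (0.13), and the cause was not tested. With 3 arrays a group, and signal over background not known, small changes at dim probe sets were not detectable.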
